A study of Mus musculus with 141 samples.

Results

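The secreted Wnt antagonists examined here are 10 mouse genes: the secreted Frizzled-related protein genes Sfrp1, Sfrp2, Frzb (also called Sfrp3), Sfrp4 and Sfrp5, the Wnt inhibitory factor gene Wif1, and the Dickkopf genes Dkk1, Dkk2, Dkk3 and Dkk4. They were taken by name from 21631 protein-coding genes, and every position of the deposited CpG methylation table inside them or within 1 kb of either end was used. The positions form 350 CpGs with 1657 calls in AG-881-treated cells and 1338 calls in DMSO-treated cells, where a call is 1 CpG read in 1 cell. The cells are a mouse glioma line that carries the IDH R132H mutation, and both groups carry it. One group was cultured with 1 µM AG-881 (vorasidenib, an inhibitor of mutant IDH1 and IDH2) and the other with DMSO, the solvent, each for more than 2 weeks. Live cells (calcein AM+, TO-PRO-3-) were sorted singly and their DNA was cut with MspI, which cuts at CCGG, for single-cell reduced representation bisulfite sequencing. The table holds 67 AG-881 cells in library pools 1 to 4 and 74 DMSO cells in library pools 5 to 8. Each arm comes from a single plate, and separate cultures are not named, so an arm counts as 1 sample (n = 1 each) and no test between arms was run. Every pool holds cells of 1 arm, so that effects of the pool and of the treatment cannot be told apart.

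Wnt ligands bind a Frizzled receptor together with the co-receptor Lrp5 or Lrp6, which keeps beta-catenin from being degraded and lets it drive transcription with the Tcf and Lef factors. The Frizzled-related proteins carry a cysteine-rich domain like that of the receptors and, like Wif1, hold Wnt ligands outside the cell. Dkk1, Dkk2 and Dkk4 act instead on Lrp5 and Lrp6, with the Kremen proteins as partners, while Dkk3 is a divergent family member. Mutant IDH makes 2-hydroxyglutarate, which inhibits the TET enzymes that oxidise methylated cytosine. Promoter methylation of SFRP, DKK and WIF1 genes has been described in human gliomas and other tumours.

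The stretch around each gene's annotated start is called its start window here, 1 kb to either side. The RefSeq promoter entries of Sfrp2, Frzb, Sfrp5 and Wif1 (GRCm38.p6, the sequence of mm10) are shown because the table has calls inside them, and so they let the values below be placed on the DNA. Each runs from 250 bp before to 50 bp after a RefSeq transcript start, 5′ to 3′ on the strand of the gene, and capitals mark the CpGs that were called in at least 1 cell. Frzb lies on the minus strand of chromosome 2, with its entry at chr2:80447347-80447646. Wif1 lies on the plus strand of chromosome 10, with its entry at chr10:121033754-121034053. Sfrp5 lies on the minus strand of chromosome 19, with its entry at chr19:42202203-42202502. Sfrp2 lies on the plus strand of chromosome 3, and its entry at chr3:83766071-83766370 belongs to a transcript start inside the start window, downstream of the gene's annotated start.
Frzb: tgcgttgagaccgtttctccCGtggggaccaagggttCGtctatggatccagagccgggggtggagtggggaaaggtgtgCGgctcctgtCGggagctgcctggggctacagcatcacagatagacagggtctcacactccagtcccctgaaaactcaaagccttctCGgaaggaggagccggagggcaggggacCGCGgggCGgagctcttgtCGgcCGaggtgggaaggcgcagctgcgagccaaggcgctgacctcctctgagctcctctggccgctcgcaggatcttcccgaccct
Wif1: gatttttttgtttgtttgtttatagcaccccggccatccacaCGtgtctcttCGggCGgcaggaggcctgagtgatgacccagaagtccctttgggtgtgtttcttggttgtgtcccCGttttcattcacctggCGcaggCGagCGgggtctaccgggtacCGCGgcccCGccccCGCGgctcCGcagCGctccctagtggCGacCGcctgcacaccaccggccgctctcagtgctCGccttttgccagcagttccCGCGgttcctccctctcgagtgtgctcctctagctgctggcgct
Sfrp5: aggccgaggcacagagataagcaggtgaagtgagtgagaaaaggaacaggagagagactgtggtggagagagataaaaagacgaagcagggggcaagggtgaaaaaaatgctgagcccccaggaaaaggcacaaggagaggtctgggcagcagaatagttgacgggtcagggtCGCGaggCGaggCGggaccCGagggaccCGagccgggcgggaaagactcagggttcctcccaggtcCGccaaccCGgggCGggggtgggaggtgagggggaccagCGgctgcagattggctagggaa
Sfrp2: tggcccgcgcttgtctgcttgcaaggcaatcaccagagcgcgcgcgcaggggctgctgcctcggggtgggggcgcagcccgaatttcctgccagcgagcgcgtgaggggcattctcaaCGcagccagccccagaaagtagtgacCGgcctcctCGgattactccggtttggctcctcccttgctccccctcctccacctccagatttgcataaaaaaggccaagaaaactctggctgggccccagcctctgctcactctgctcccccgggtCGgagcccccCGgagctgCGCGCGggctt
The entries hold 20 CpGs in Frzb, 25 in Wif1, 15 in Sfrp5 and 22 in Sfrp2, against a median of 7 over 32851 RefSeq promoter entries. The MspI motif CCGG, which reads the same on both strands, occurs 2 times in Frzb, 3 times in Wif1, 2 times in Sfrp5 and 4 times in Sfrp2. It occurs in 52.8% of all entries. The entry of Dkk1 holds 9 CpGs and 1 CCGG and that of Dkk2 holds 11 CpGs and no CCGG, and neither had a call at a CpG. Sfrp1, Sfrp4, Dkk3 and Dkk4 have no entry.

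Across these promoter entries the level ran from nearly unmethylated to mixed. In Wif1, 19 of the 25 CpGs were called. The methylation level, the percentage of calls that were methylated, was 2.50% of 160 calls in 20 AG-881 cells, against 0 of 95 calls in 14 DMSO cells, which allows a level of up to 3.16%. In Frzb the level was 4.08% of 49 calls in AG-881 cells and 15.2% of 46 calls in DMSO cells. Sfrp5 had 16.1% of 31 calls methylated in AG-881 cells and 28.6% of 28 calls in DMSO cells. Sfrp2 had 40.9% of 22 calls methylated in AG-881 cells and 73.7% of 19 calls in DMSO cells. The 95% Clopper-Pearson intervals of both arms overlapped in Frzb (0.498 to 14% with AG-881, 6.34 to 28.9% with DMSO) and in Sfrp2 (20.7 to 63.6% with AG-881, 48.8 to 90.9% with DMSO). All such intervals cover counting error only, and since the calls of 1 cell go together the spread between cells would be wider.

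Coverage differed widely between the genes. With every position counted, the start windows of Sfrp1 (379 calls with AG-881, 369 with DMSO), Wif1 (218 and 146), Dkk1 (158 and 105), Sfrp2 (149 and 110) and Frzb (124 and 128) had the most calls. The start window of Dkk3 had 3 calls with AG-881 and 12 with DMSO, and that of Dkk4 had 9 and 6, too few to give a level for either. Strand was taken from the promoter entries. For Sfrp1, Sfrp4, Dkk3 and Dkk4, which have none, the end of the gene with more CpG positions was used as its start, and for Dkk4 that end lies within 1 kb of the gene Polb. Depth over the whole table was a median of 89440 CpG calls per AG-881 cell (23895 to 190259) and 67749 per DMSO cell (10438 to 165853). The level of a cell over the whole table was 33.4% ± 3.61 with AG-881 and 34.3% ± 2.85 with DMSO (SD over 67 and 74 cells, which describes cells of 1 plate each). At the 396065 CpGs that had calls from 5 or more cells in both arms, named shared CpGs below, the level was 25.4% with AG-881 and 26.8% with DMSO, 1.32 points apart. The line could not be checked against cell type markers here, since only methylation was analysed.

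Over the 81 shared CpGs in the start windows of these genes, methylation was lower in the AG-881 arm. The pooled level was 34.7% of 767 calls in AG-881 cells (95% interval 31.3 to 38.2%) and 44.9% of 713 calls in DMSO cells (41.2 to 48.6%), a difference of -10.2 points (-15.2 to -5.12). Inside the genes, more than 1 kb from both ends, levels were high in both arms. With every position counted, 80.5% of 389 calls were methylated in AG-881 cells and 80.8% of 276 calls in DMSO cells. The difference was -0.334 points (-6.54 to 6.08). Many of these calls lay in the 1 kb just past the start window. In Sfrp2 they numbered 64 with AG-881 and 73 with DMSO, and in Dkk3 63 and 32. At the 17 shared CpGs inside the genes the level was 73.2% of 142 calls in AG-881 cells and 77.3% of 150 calls in DMSO cells, a difference of -4.09 points (-14.4 to 6.25). Over all 98 shared CpGs of the 10 genes, start windows and bodies together, the level was 40.7% in AG-881 cells and 50.5% in DMSO cells, a difference of -9.82 points. The genes contribute unequal numbers of calls to each arm, and the mean of the single genes' differences in the 5 start windows that had 50 or more calls from 10 or more cells in each arm, added after the data were seen, was -9.01 points. DMSO pool 8 had the highest level of the 8 pools at shared CpGs in the start windows of Frzb, Sfrp5, Wif1 and Dkk1. Without DMSO pool 8 the pooled start-window difference was -7.09 points and that mean was -4.90 points.

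**Figure D1:**
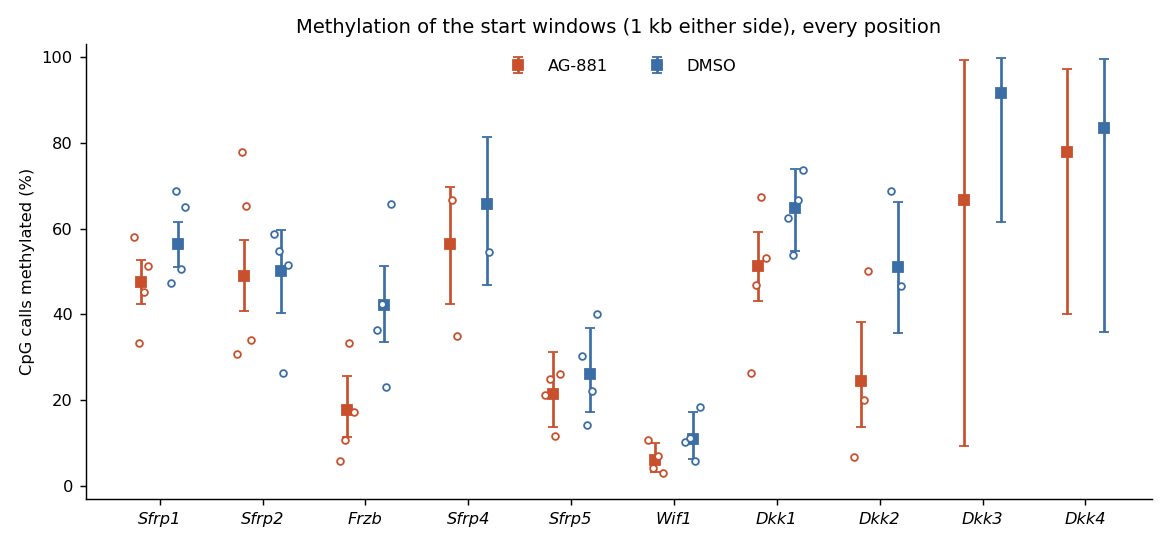
Percentage of CpG calls methylated in the start window of each gene, every position counted, with AG-881 (orange) left of DMSO (blue). Squares are the pooled level with its 95% Clopper-Pearson interval and open circles are library pools with at least 10 calls; for Sfrp1, Sfrp4, Dkk3 and Dkk4 the CpG-denser end stands for the start. Wif1 is the least methylated in both arms, and at Frzb the interval is 11.5 to 25.6% with AG-881 and 33.5 to 51.2% with DMSO.

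Among the 5 genes with that depth at shared CpGs, called measured here, all 5 had a lower level with AG-881 than with DMSO, and 2 of them, Frzb and Dkk1, were lower by at least 10 points. Without AG-881 pool 4 or without DMSO pool 8 the number lower by at least 10 points was 0, and without AG-881 pool 2 or pool 3 it was 1. Without AG-881 pool 2, 3 or 4, Frzb no longer had enough calls to be counted, while its difference was -16.3, -21.5 and -15.2 points. The same held without DMSO pool 5 or pool 7, where its difference was -21.1 and -26.4 points. The 2 genes lower by at least 10 points without either DMSO pool were Sfrp1 and Dkk1. Over all 8891 measured start windows of protein-coding genes, 3.33% were at least 10 points lower with AG-881 and 0.889% at least 10 points higher; none of the 5 genes was higher by that much. Most of those windows were hardly methylated, with 74.2% below 5% in both arms and a median DMSO level of 0.833%. Only 1018 windows averaged 20 to 80% over both arms, and 21.9% of these were at least 10 points lower and 5.70% at least 10 points higher. Sfrp1, Frzb, Sfrp5 and Dkk1 belong to that range, and 2 of the 4 were at least 10 points lower and none higher. The median difference was -9.85 points for these 4 genes and -3.92 points for the 1018 windows, of which 69.4% were lower with AG-881 and 30.5% higher. Within the 1018 differences, Frzb stood at percentile 4.42, Dkk1 at 17.2, Sfrp1 at 28.4 and Sfrp5 at 54.1, so Frzb lay near the lower end and Sfrp5 near the middle.

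**Figure D2:**
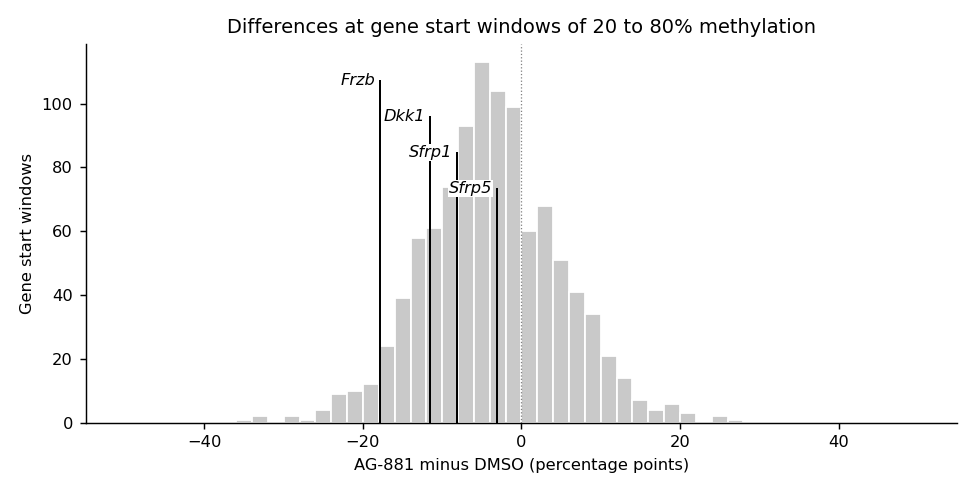
Differences in start-window methylation, AG-881 minus DMSO in percentage points (x axis), for the 1018 protein-coding gene start windows that averaged 20 to 80% methylated (bars, number of windows per 2 points). The vertical lines mark Frzb at -17.8, Dkk1 at -11.5, Sfrp1 at -8.17 and Sfrp5 at -3.07 points, and their heights have no meaning.

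The Frizzled-related gene Frzb, whose product was first known for its part in cartilage, had the largest difference of the measured genes. It spans chr2:80411970-80447396. At the shared CpGs of its start window the level was 18% of 61 calls in 16 AG-881 cells (95% interval 9.36 to 30%) and 35.8% of 67 calls in 19 DMSO cells (24.5 to 48.5%), a difference of -17.8 points (-33.1 to -1.31). With every position counted, the level was 17.7% of 124 calls in 24 AG-881 cells and 42.2% of 128 calls in 28 DMSO cells, a difference of -24.4 points (-35.5 to -12.7). By pool, and with every position counted, the AG-881 levels were 5.88%, 10.7%, 33.3% and 17.3% in pools 1 to 4, against 36.4%, 42.3%, 23.1% and 65.6% in DMSO pools 5 to 8. Counted this way, the arms overlap in 1 place, since AG-881 pool 3 lay above DMSO pool 7. At shared CpGs AG-881 pool 3, at 33.3% of 12 calls, lay above DMSO pool 5 (28.6% of 21) and pool 7 (18.2% of 22). Without DMSO pool 8 the difference at shared CpGs was -9.24 points.

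Along Frzb the level with AG-881 was lower in most but not all 100-bp windows. In the last 100 bp before it, 0 of 29 calls were methylated in AG-881 cells, which allows up to 10.3%, against 25% of 20 calls in DMSO cells, where 4 of the methylated calls came from the single CpG at chr2:80447478. In the 100 bp before that the order was the other way, with 14.3% of 14 calls in AG-881 cells and 5.56% of 18 calls in DMSO cells. From 500 to 1000 bp downstream the level was 25.4% of 59 calls in AG-881 cells and 49.2% of 63 calls in DMSO cells, a difference of -23.8 points (-40.4 to -5.50). The table also covers 5 CpGs near the other end of the gene body, where 95.5% of 22 calls were methylated in AG-881 cells and 90% of 10 calls in DMSO cells.

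Sfrp1, the best covered of the family here, was about evenly mixed in both arms. It spans chr8:23411383-23449632. Its start window had 49.4% of 271 calls methylated in 25 AG-881 cells (43.3 to 55.6%) and 57.6% of 302 calls in 29 DMSO cells (51.8 to 63.3%), a difference of -8.17 points (-16.5 to 0.252). The pools read 67.4%, 35%, 48.5% and 48.3% in AG-881 pools 1 to 4, against 50%, 66.7%, 52.2% and 65.7% in DMSO pools 5 to 8. AG-881 pool 1 had the highest level of all 8 pools and the other AG-881 pools lay below every DMSO pool. At the CpGs of the whole window called in at least 10 cells per arm, the difference was 2.08 points in the other direction.

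Within the Sfrp1 start window, the difference changed over short distances. The 100-bp window with the most calls, 200 to 300 bp downstream of the start, had 58.7% of 138 calls methylated in AG-881 cells and 57.5% of 160 calls in DMSO cells. The next 100 bp had 9.68% of 31 calls methylated in 5 AG-881 cells and 44.4% of 27 calls in 6 DMSO cells. Neighbouring CpGs in the best covered stretch could differ widely. The CpG at chr8:23411592 was methylated in 93.8% of 16 calls with AG-881 and 75% of 16 with DMSO, and the one at chr8:23411597 in 36.4% of 11 calls with AG-881 and 23.5% of 17 with DMSO. Inside the gene, chr8:23419475 had 93.3% of 15 calls methylated with AG-881 and 92.3% of 13 with DMSO, while chr8:23419509, a position whose sequence was not read here, had 0 of 15 calls with AG-881 (which allows up to 20%) and 7.69% of 13 with DMSO.

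**Figure D3:**
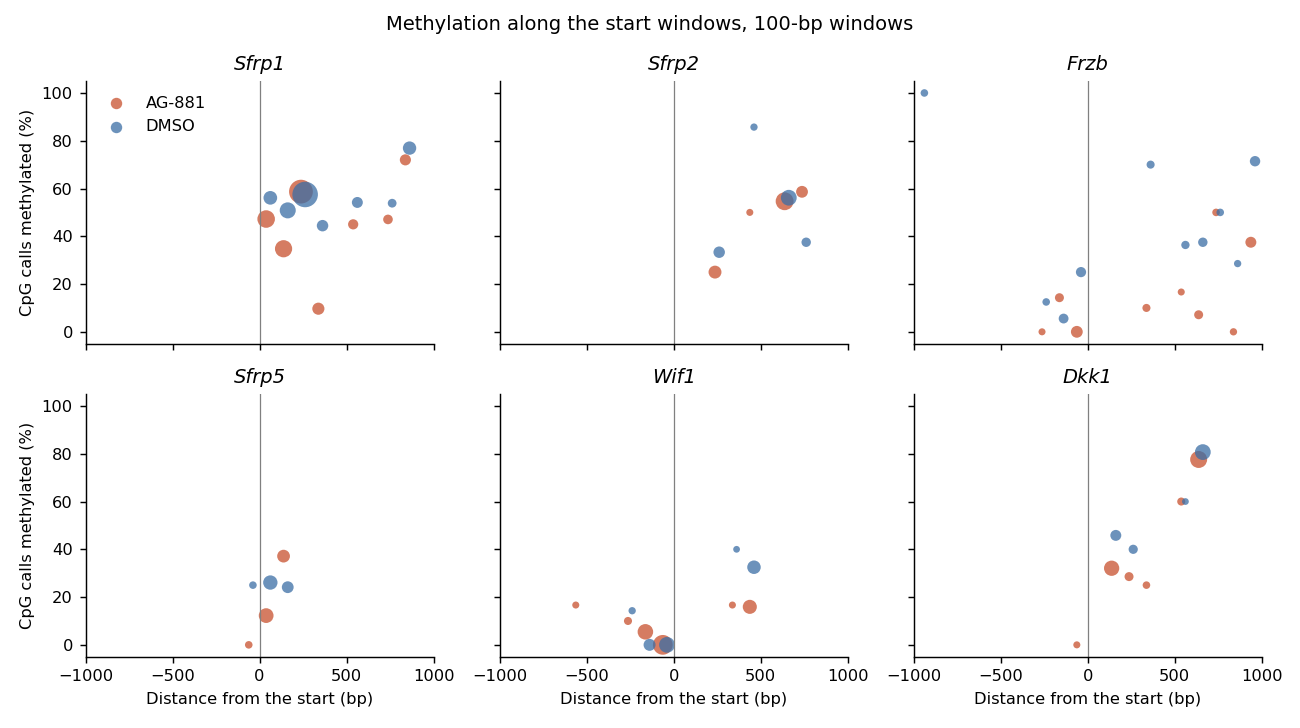
Percentage of CpG calls methylated (y axis) by distance from the annotated start in the direction of the gene (x axis, bp) for 6 of the genes, in 100-bp windows with at least 5 calls in the arm. AG-881 is orange and DMSO blue, and point area grows with the number of calls; Sfrp1 uses the CpG-denser end as its start. Wif1 is at 0% in both arms in the last 100 bp before its start and at 15.9% with AG-881 and 32.5% with DMSO 400 to 500 bp after it, and Dkk1 is higher beyond 500 bp than near its start.

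Sfrp2, Sfrp4 and Sfrp5 gave no difference between arms beyond counting error. Sfrp2 spans chr3:83765750-83774314. With every position counted, its start window had 49% of 149 calls methylated in AG-881 cells and 50% of 110 calls in DMSO cells, a difference of -1.01 points (-13.7 to 11.8). At its 6 shared CpGs the sign was the opposite, with 66.7% of 36 calls in AG-881 cells and 58.3% of 36 calls in DMSO cells, a difference of 8.33 points (-15.6 to 31.3). Its pools were far apart within each arm, at 30.8%, 77.8%, 65.3% and 33.9% in AG-881 pools 1 to 4, against 58.6%, 54.8%, 26.3% and 51.6% in DMSO pools 5 to 8, and the arms overlapped throughout. Inside Sfrp2, past the start window, 90% of 70 calls were methylated in AG-881 cells and 91.2% of 80 calls in DMSO cells. Of these, 64 and 73 calls lay at chr3:83766768-83767015, close to the start window, so most of the body was hardly read.

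Sfrp5 spans chr19:42197971-42202252. Its start window had 21.2% of 80 calls methylated in 21 AG-881 cells and 24.3% of 74 calls in 21 DMSO cells at shared CpGs, a difference of -3.07 points (-17.2 to 11). Its pools read 17.9%, 33.3%, 11.8% and 26.1% in AG-881 pools 1 to 4, against 26.9%, 16.7%, 19.2% and 40% in DMSO pools 5 to 8, so the arms overlapped. When every cell had the same weight, the Sfrp5 difference was 23.8 points in the other direction. Few cells had many calls there. With every position counted, 6 of 21 AG-881 cells and 4 of 21 DMSO cells had 5 or more. Sfrp4 spans chr13:19623175-19632825 and had no shared CpG. With every position counted, its denser end had 56.4% of 55 calls methylated in AG-881 cells and 65.6% of 32 calls in DMSO cells, and the intervals of both arms overlapped (42.3 to 69.7% with AG-881, 46.8 to 81.4% with DMSO).

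Wif1 had the least methylated start of the measured genes in both arms. It spans chr10:121034004-121100642. At shared CpGs the level was 5.98% of 184 calls in 26 AG-881 cells (3.02 to 10.4%) and 10.5% of 124 calls in 21 DMSO cells (5.70 to 17.3%), a difference of -4.51 points (-11.9 to 2.04). The pools read 11.4%, 0 of 32 calls (which allows up to 9.38%), 7.27% and 3.77% in AG-881 pools 1 to 4, against 12.1%, 11.1%, 2.50% and 18.2% in DMSO pools 5 to 8. The pools of both arms overlapped, with DMSO pool 7 below 3 of the AG-881 pools.

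The methylation of Wif1 lay downstream of its start rather than before it. In the 500 bp before the start, 2.53% of 158 calls were methylated in AG-881 cells and 1.06% of 94 calls in DMSO cells. In the 500 bp after it the level was 14.8% of 54 calls in AG-881 cells (6.62 to 27.1%) and 31.2% of 48 calls in DMSO cells (18.7 to 46.3%). Most of these calls sit at 4 CpGs, 400 to 500 bp downstream. Deep inside the gene most calls were methylated, with 89.1% of 92 calls in AG-881 cells and 93.2% of 59 calls in DMSO cells over the body.

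Dkk1, the best studied inhibitor of Lrp6 and the only measured Dickkopf gene, had the highest start-window level of the measured antagonist genes. It spans chr19:30545876-30549496. At shared CpGs it was methylated in 56.8% of 111 calls in 32 AG-881 cells (47 to 66.1%) and in 68.3% of 82 calls in 24 DMSO cells (57.1 to 78.1%), a difference of -11.5 points (-25.4 to 3.07). The pools read 28.6%, 59.1%, 73.5% and 42.1% in AG-881 pools 1 to 4, against 71.4%, 52.6%, 66.7% and 79.2% in DMSO pools 5 to 8. The arms overlapped, and AG-881 pools 2 and 3 lay above DMSO pool 6. The difference was -7.47 points without AG-881 pool 1, -18.9 without AG-881 pool 3 and -7.04 without DMSO pool 8. In the 500 bp downstream of the start the level was 30.7% of 75 calls in AG-881 cells and 45.2% of 42 calls in DMSO cells. From 500 to 1000 bp it was 75.3% of 77 calls in AG-881 cells and 79% of 62 calls in DMSO cells. Dkk1 was thus more methylated away from its start in both arms. At single CpGs of this window the arms were both at 100% at chr19:30548834 (12 calls with AG-881, 11 with DMSO), and at chr19:30549337, nearer the start, 0 of 12 calls were methylated with AG-881 (which allows up to 25%) and 18.2% of 11 with DMSO.

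Dkk2 and Dkk3 were covered more thinly. Dkk2, at chr3:132085266-132180304, had 24.5% of 53 calls methylated in 19 AG-881 cells (13.8 to 38.3%) and 51.1% of 45 calls in 20 DMSO cells (35.8 to 66.3%) with every position of its start window counted, a difference of -26.6 points (-45.2 to -5.98). Its shared CpGs were 2, with 25% of 24 calls in AG-881 cells and 50% of 28 calls in DMSO cells, too few to count it as measured. Its pools were 6.67%, 33.3%, 20% and 50% in AG-881 pools 1 to 4, against 68.8%, 50%, 46.7% and 16.7% in DMSO pools 5 to 8, with 6 to 20 calls each, and they overlapped through AG-881 pool 4 and DMSO pool 8. Dkk3, at chr7:112116019-112159482, was read mainly inside the gene, where 81.6% of 103 calls were methylated in 30 AG-881 cells and 70.2% of 47 calls in 18 DMSO cells, a difference of 11.3 points (-3.93 to 28). Dkk4 lies at chr8:22623685-22628018.

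Taking pools as technical batches, 4 of the genes (Sfrp1, Sfrp5, Wif1 and Dkk1) had at least 10 calls at shared CpGs in each of the 8 pools. None of the 4 had every AG-881 pool below every DMSO pool, against 1.28% of the 7354 start windows with that depth, and none had every AG-881 pool above, against 0.190%. Without AG-881 pool 1, 1 gene, Sfrp1, had every remaining AG-881 pool below every DMSO pool. The share of 1.28% is for all 8 pools, and no share over all start windows is given for that smaller set of pools.

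Single cells mostly carried a mixture of methylated and unmethylated calls at Sfrp1, and were nearly all unmethylated at Wif1. A cell with at least 5 calls in a start window was counted as methylated at 80% or more, as unmethylated at 20% or less, and as mixed between. At Sfrp1, 5 cells were methylated, 17 mixed and 5 unmethylated of 27 AG-881 cells, against 5, 20 and 5 of 30 DMSO cells. The make-up of both arms was thus close at Sfrp1. At Wif1, 19 of 20 AG-881 cells and 12 of 15 DMSO cells were unmethylated, and no cell of either arm was methylated (up to 15% of AG-881 cells and 20% of DMSO cells are allowed by 0). At Frzb, 8 of 11 AG-881 cells were unmethylated (72.7%, 95% interval 39 to 94%) and none methylated, against 3 of 12 DMSO cells unmethylated (25%, 5.49 to 57.2%) and 2 methylated. At Dkk1, 4 cells were methylated, 10 mixed and 2 unmethylated of 16 AG-881 cells, against 6, 4 and 0 of 10 DMSO cells. The class of a cell at Dkk1 also depends on which part of the window was read. The less methylated first 500 bp downstream held 75 calls in AG-881 cells and 42 in DMSO cells. The next 500 bp held 77 and 62 calls. How far this shaped the Dkk1 counts was not tested. Giving every cell the same weight at shared CpGs left a Dkk1 difference of -0.476 points.

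The cells that gave these values also differed in their level over the whole table, more at some genes than at others. The median whole-table level of the cells counted at Frzb was 32.8% with AG-881 and 35.4% with DMSO. At Wif1 it was 32.4% with AG-881 and 36.3% with DMSO. The arms were closer at Sfrp1 (33.4% with AG-881, 34.1% with DMSO) and at Dkk1 (34.9% with AG-881, 35.8% with DMSO). The part of the whole-cell level in the differences at these genes was not tested. Some cells were called at more than 1 gene. Of 20 cells with at least 5 calls at both Sfrp1 and Wif1, 4 were methylated at Sfrp1 and unmethylated at Wif1, 2 were unmethylated at both, and 14 were mixed at 1 or both. Of 9 such cells for Frzb and Wif1, 7 were unmethylated at both. Of 14 for Sfrp1 and Dkk1, 2 were methylated at Dkk1 and unmethylated at Sfrp1, and the others were mixed at 1 or both.

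**Figure D4:**
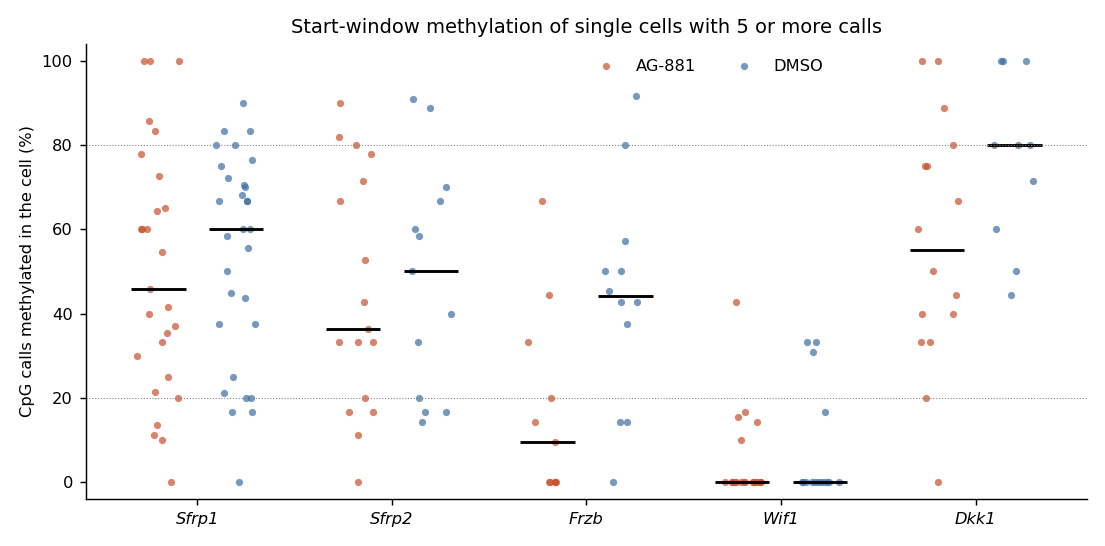
Percentage of CpG calls methylated in the start window of each cell with at least 5 calls (y axis), for 5 genes, with AG-881 (orange) left of DMSO (blue). Each point is 1 cell, black bars are medians over cells, and dotted lines mark 20% and 80%; at Frzb the median is 9.52% over 11 AG-881 cells and 44.2% over 12 DMSO cells.

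Other genes of the Wnt pathway were counted for comparison, from 5 lists of 71 genes, of which 50 had a measured start window. Of these, 34 were lower with AG-881 than with DMSO, 12 higher and 4 equal, with 6 at least 10 points lower and 1 at least 10 points higher. The shares over all 8891 measured start windows were 3.33% and 0.889%. Among the 1018 windows at 20 to 80% they were 21.9% and 5.70%, and 69.4% were lower by any amount. Of the 50 genes, 42% were at 20% or more in DMSO cells, against 13.1% of all measured start windows. The Wnt ligands were the most methylated list, with a median level of 24.9% in AG-881 cells and 32.4% in DMSO cells, and 10 of their 11 measured start windows were lower with AG-881. Their extremes were Wnt9a, at 7.94% of 63 calls in AG-881 cells and 31.2% of 96 calls in DMSO cells, and Wnt4, at 24.9% in AG-881 cells and 24.6% in DMSO cells. Of 15 receptors and co-receptors 12 were lower, and most were hardly methylated, with a median level of 2.25% in AG-881 cells and 3.93% in DMSO cells. The extremes were Kremen2, the partner of Dickkopf proteins, at 12.7% in AG-881 cells and 23.8% in DMSO cells, and Fzd1, a Frizzled receptor, at 0.326% in AG-881 cells and 0 of 1074 calls in DMSO cells.

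The other extracellular inhibitors did not share one direction. Of the 4 measured, 1 was lower with AG-881, 2 were higher and 1 was equal, with Draxin, an axon guidance protein, at 12.7% in AG-881 cells and 14.8% in DMSO cells, and Trabd2b, a protease that acts on Wnt ligands, at 23.9% in AG-881 cells and 22.2% in DMSO cells. Of 7 R-spondins, which strengthen Wnt signals, and their receptors, 5 were lower, with Rspo4 at 23.6% in AG-881 cells and 37% in DMSO cells and Rspo2 at 22.9% in AG-881 cells and 19.8% in DMSO cells. Of 13 intracellular genes 6 were lower, 5 higher and 2 equal. Nkd2, an inhibitor that binds Dishevelled, had 19.7% in AG-881 cells and 30.4% in DMSO cells, and Dact2, which also binds Dishevelled, had 64.2% of 120 calls in AG-881 cells and 45% of 111 calls in DMSO cells, 19.1 points higher with AG-881. The median difference was -8.17 points for the 5 measured antagonists, -6.77 points for the 11 ligands and -1.24 points for the 50 genes of the 5 lists. It was -0.0105 points for all 8891 measured start windows and -3.92 points for the 1018 that averaged 20 to 80%. Levels differ between these lists as well, and the difference between the lists was not tested.

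**Figure D5:**
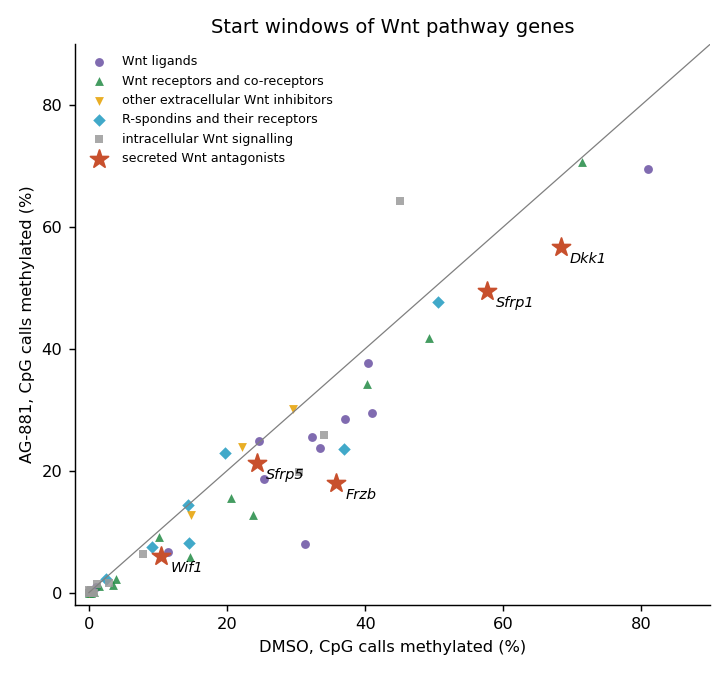
Start-window methylation of the 5 measured secreted Wnt antagonists (stars, named) and of 50 other Wnt pathway genes (symbols by list), with the AG-881 level (%) on the y axis against the DMSO level (%) on the x axis at shared CpGs. Points below the diagonal are lower with AG-881, as all 5 stars are; the point farthest above it is Dact2, at 64.2% with AG-881 and 45% with DMSO.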

How the data were processed

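Methylation was measured by single-cell reduced representation bisulfite sequencing after MspI digestion, jointly with Smart-seq2, per the labels' protocols; the transcriptomes were not analysed here. The authors deposited a methylated fraction per position and cell, with the values 0, 0.5 and 1, for 1416034 positions in 141 cells. The build is mm10, per the submitters' processing notes. Which aligner and methylation caller were used is not given in the sources used here, nor is a read minimum. The deposited values carry no read numbers, so read depth is unknown. Column names give the arm, pool and barcode but not the well, so cells were assigned to arms. All 24 cell barcodes recur across pools, where they mark different cells.

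Adjacent positions were merged as both strands of 1 CpG (1322177 CpGs), and ties at 0.5 (0.649% of calls) were left out. Of the positions in RefSeq promoter entries, 1.59% did not lie at a CpG of the reference. These include 1 position in the Dkk1 entry and 1 in the Wif1 entry, left out of the promoter-entry levels only. Levels pool calls over cells with Clopper-Pearson intervals (95%), and differences have Newcombe intervals. A 0 is given with a limit of 3 divided by the number of calls or cells. For the values given here that limit lies below the upper Clopper-Pearson bound. Gene ends came from RefSeq GRCm38.p6, with strand known for 17274 genes, the CpG-denser end used for 3253 and 1104 left out. Of the other Wnt genes, the measured ones with the largest decrease and increase in each list are named. The genes, lists and rules were chosen with earlier results of these data known. Python 3.11.15, numpy 2.4.6, pandas 2.3.3, scipy 1.17.1 and matplotlib 3.10.9 were used. Alternatives changed the coverage minimum, the weighting, the window, strand merging, ties and each pool.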

Additional observations from a re-analysis of the deposited data

How the results depend on the processing

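The lower start-window level with AG-881 kept its direction under every setting tried, from -5.94 points at CpGs with calls from 10 or more cells per arm to -14.4 points without DMSO pool 7. Over all positions of the genes the range was -5.77 to -14.2 points. Which genes were lower by at least 10 points was less stable. Their number was 2 at first, 0 at CpGs called in at least 10 cells per arm, where only 2 genes were measured, 0 in windows of 500 bp, where 3 were, and 1 with every cell given the same weight. Leaving out 1 pool at a time gave 0 to 2, with 0 without AG-881 pool 4 and 0 without DMSO pool 8, and 1 without AG-881 pool 2 or pool 3. Without AG-881 pool 2, 3 or 4 only 4 genes were measured, since Frzb fell below the minimum of 50 calls while its difference was -16.3, -21.5 and -15.2 points. The number at least 10 points higher was 0, and 1 (Sfrp5) with every cell given the same weight. The number with every AG-881 pool below every DMSO pool was 0, and 1 with every CpG given the same weight, and leaving out 1 pool at a time gave 0 to 1, with 1 without AG-881 pool 1. No share over all start windows is given for either setting with a count of 1. With every cell given the same weight, 3 of the 5 measured genes were lower and their mean difference was -2.37 points, against -9.01 at first. That setting gave no value for Dkk2 or Dkk3. It includes Sfrp5, where only 6 AG-881 cells and 4 DMSO cells had 5 or more calls with every position counted. At CpGs with calls from 10 or more cells per arm, 1 of 2 was lower and the mean was -0.792 points. Without DMSO pool 8 the mean was -4.90 points. Frzb was lower with AG-881 under all 16 alternatives (-33.3 to -8.99 points), Dkk1 under all 17 (-18.9 to -0.476) and Dkk2 under all 15 (-35.0 to -8.33). Sfrp1, Sfrp5 and Wif1 were lower under 16 of 17 each, and Sfrp2 under 3 of 15. Dkk3 had no shared CpG in its start window. Over all its positions, with 4 shared CpGs, Dkk3 was higher with AG-881 under all 13 alternatives (2.95 to 13.4 points). The causes of these shifts were not tested. No paired analysis was possible because the labels pair no cells across arms, and no test between arms was run. Depth left 5 of the 10 genes with too few shared calls to be counted.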
